A study of Mus musculus with 4 samples.

Results

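The mitochondrial ribosomal proteins are the protein-coding genes whose symbols start with Mrpl or Mrps and a digit, taken once per gene ID. The rule found 77 members among 39179 gene IDs, of which 47 carried a large-subunit name (Mrpl) and 30 a small-subunit name (Mrps). RNA was sequenced from mouse cardiac progenitor cells derived from an embryonic stem cell line in which Gata6 can be induced. The cells of 2 libraries had been cultured with 10 µM cucurbitacin I hydrate, a plant triterpenoid that blocks the JAK2 and STAT3 pathway, and those of 2 others with 0.1% DMSO, the vehicle, each for 2 days. The labels put treatment on day 6, name the libraries for day 8 and give day 10 for the harvest, and no label says whether the libraries of one group are separate cultures. The p-values below therefore measure the spread between these libraries, which may be technical, and all 4 libraries come from a single engineered line.

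Mitochondria carry their own ribosome, which translates the few mRNAs encoded in mitochondrial DNA, all of them for hydrophobic subunits of the respiratory chain and ATP synthase. Its RNAs come from mitochondrial DNA, whereas all of its proteins are encoded in the nucleus, made in the cytosol and imported. Many of these proteins have counterparts in the bacterial ribosome and others exist in mitochondria alone. The heart depends heavily on oxidative metabolism, and human mutations in several of these genes cause cardiomyopathy or infantile mitochondrial disease.

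Mitochondrial ribosomal protein transcripts moved little with cucurbitacin I. Of the 76 members with enough reads to be tested, 16 were higher in cucurbitacin I and 0 were lower (edgeR quasi-likelihood test, Benjamini-Hochberg adjusted p below 0.05 over 16722 genes), against 13.9% of all genes tested higher and 19.5% lower. The 16 higher members are 21.1% of those tested. At an unadjusted p below 0.05 there were 26 members higher and 1 lower, Mrpl54, against 3450 and 4244 of all 16722 genes. DESeq2 called 14 members higher and 0 lower, against 2342 and 3106 of all genes, and did not call Mrpl15 and Mrpl51. The members' median log2 fold change was 0.21 with TMM scaling (trimmed mean of M values), with an interquartile range of 0.07 to 0.35, but -0.02 when libraries were scaled by their totals. All genes tested had a median of -0.01 with TMM scaling and -0.24 with library totals. The members' median lay 0.22 above that of all genes in both, because this change of scaling shifts all genes by nearly the same amount. In bulk RNA, fewer cells of a type and less RNA per cell cannot be told apart.

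The 4 library totals were 26773886 and 23759431 counts in cucurbitacin I, and 27069312 and 25573785 counts in DMSO. All members together took 0.293% and 0.308% of the counts in the cucurbitacin I libraries, against 0.314% and 0.300% in the DMSO libraries. By this share the groups overlapped. Scaled by TMM, the summed level was 3210 and 3311 CPM (counts scaled for library size) in cucurbitacin I, against 2837 and 2822 CPM in DMSO, and the groups did not overlap. TMM factors were 0.912 and 0.932 in cucurbitacin I and 1.107 and 1.063 in DMSO, and these factors are what separates the scalings. All levels below are TMM-scaled CPM, and fold changes are log2 of cucurbitacin I over DMSO with the standard error (SE).

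**Figure D1:**
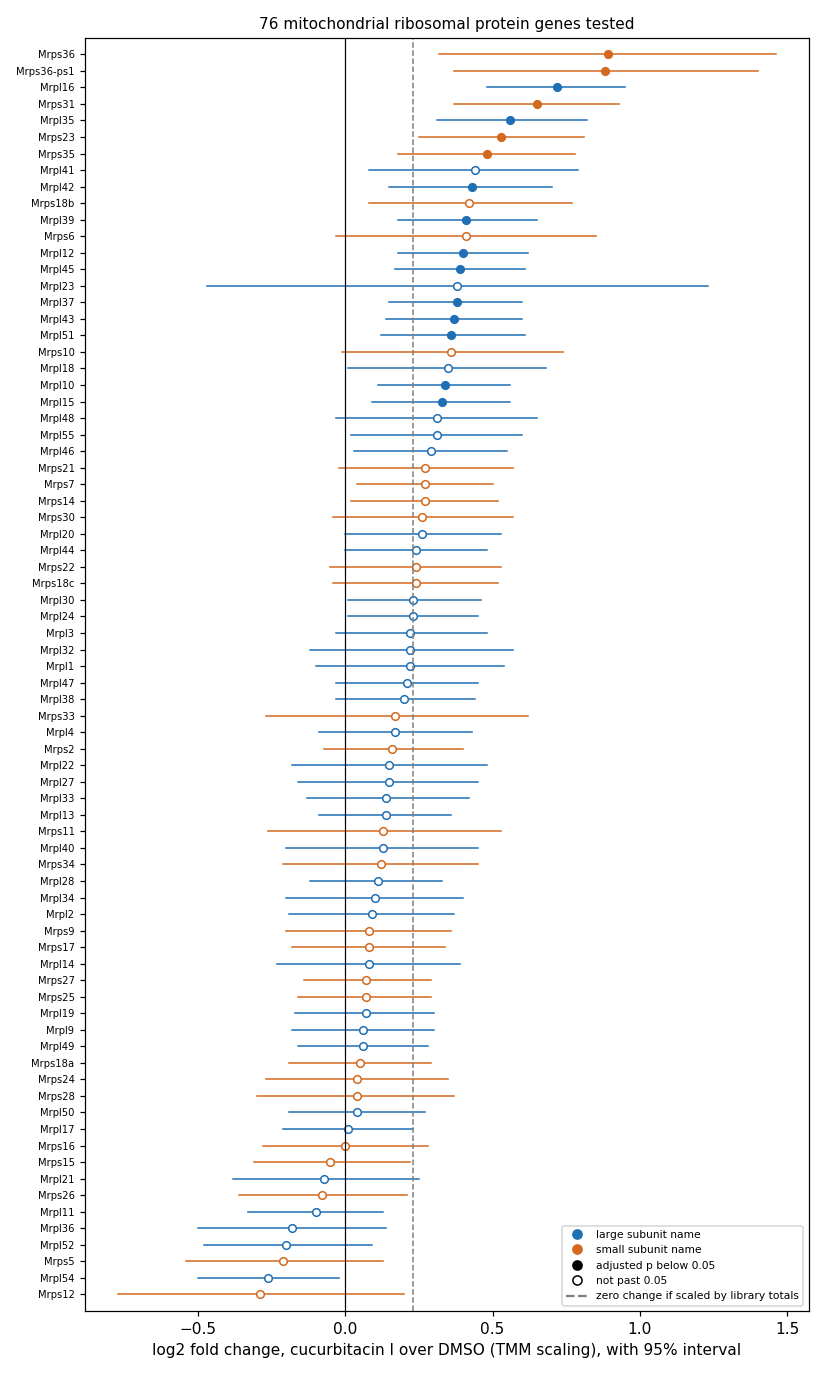
Fitted log2 fold change of cucurbitacin I over DMSO for the 76 members tested, with 95% intervals; filled points are past an adjusted p of 0.05, blue points carry large-subunit names and orange points small-subunit names. The points run from -0.29 for Mrps12 to 0.89 for Mrps36 around a median of 0.21; measured from the dashed line, which marks zero change under scaling by library totals, that median is -0.02.

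Against no change, the family's range was narrow. The fold changes ran from -0.29 to 0.89, and 72 of 76 members lay within 1.5-fold of no change, against 64.4% of all genes tested. The whole 95% interval of 52 of 76 members (68.4%) lay within 1.5-fold, against 28.6% of all genes tested. The median absolute log2 fold change was 0.22 for the members and 0.40 for all genes, and the median SE was 0.11 for the members and 0.17 for all genes. With TMM scaling 66 members had a positive sign and 10 a negative one, but with library totals 33 were positive and 43 negative, so the sign of a typical member depended on the scaling. Neither the level (Spearman's rho 0.01, n = 76 genes) nor the exon length (rho 0.06, n = 75 genes) tracked the fold change across the members, which share the same 4 libraries.

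Library values separated more often than the test called. The cucurbitacin I libraries were both above both DMSO libraries for 51 of 76 members (67.1%), against 35.6% of all genes tested, and both below for 5 members, against 37.4%. In either direction 73% of all genes were apart. With 2 libraries a group, an exact permutation test of a single value cannot give a p below 0.33. Leaving out any 1 library lowered the number of members called higher, and that of all genes called higher. The members' share of such calls exceeded that of all genes only without cucurbitacin I replicate 1, and was below it in the other runs. Mrpl16 was the only member called in all of these runs. The members' median log2 fold change was 0.21 and 0.18 without cucurbitacin I replicates 1 and 2. It was 0.22 and 0.20 without DMSO replicates 1 and 2. Scaled by library totals, 2 members were higher, Mrpl16 and Mrps31, and 1 was lower, Mrpl54, against 6.33% and 28.5% of all genes.

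Mrpl16, the counterpart of bacterial L16 that lies near the site where the large subunit receives tRNA, held its call under every alternative that was run. It had 50.4 and 50.2 CPM in cucurbitacin I, against 31.2 and 30.0 CPM in DMSO. The groups were far apart relative to the spread within each, and the log2 fold change was 0.72 (SE 0.09, edgeR adjusted p = 0.00613). Mrpl16 (ENSMUSG00000024683, chr19:11770415-11774944, mm10, plus strand) still ranked only at the 70.9th percentile of absolute fold change among all genes tested. With library totals its log2 fold change was 0.48 (adjusted p = 0.0196).

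Mrps31, a small-subunit protein without a bacterial counterpart, was the other member called under both scalings. Its levels were 47.3 and 44.5 CPM in cucurbitacin I, against 27.5 and 31.0 CPM in DMSO. The groups did not overlap, and the log2 fold change was 0.65 (SE 0.11, edgeR adjusted p = 0.0121), or 0.42 with library totals (adjusted p = 0.0348). Without DMSO replicate 1 it was 0.57 (adjusted p = 0.0746). Mrps31 (ENSMUSG00000031533) lies on chr8:22411340-22429665, plus strand.

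The largest fitted changes belonged to Mrps36 and Mrps36-ps1, which are hard to separate. Mrps36, named as a ribosomal protein, is now known as a component of the 2-oxoglutarate dehydrogenase complex and not of the mitochondrial ribosome. Mrps36 had 7.29 and 8.49 CPM in cucurbitacin I, against 3.71 and 4.82 CPM in DMSO (log2 fold change 0.89, SE 0.23, edgeR adjusted p = 0.0341). Mrps36-ps1, listed as protein coding although its symbol marks a pseudogene, had 6.11 and 6.19 CPM in cucurbitacin I, against 3.21 and 3.46 CPM in DMSO (0.88, SE 0.21, adjusted p = 0.0259). The groups did not overlap for either gene, but copies of such likeness can share reads and their counts are uncertain. A further 3 symbols of the same pattern were listed as pseudogenes and are not members: Mrpl48-ps, Mrpl23-ps1 and Mrps36-ps2.

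Among large-subunit proteins with bacterial counterparts, Mrpl12, Mrpl10, Mrpl15 and Mrpl35 were also higher. Mrpl12, the stalk protein that recruits translation factors and that in human cells also binds mitochondrial RNA polymerase, had 103 and 107 CPM in cucurbitacin I, against 78.2 and 81.4 CPM in DMSO (log2 fold change 0.40, SE 0.09, edgeR adjusted p = 0.0225). Mrpl10, which anchors that stalk, had 89.3 and 85.2 CPM in cucurbitacin I, against 67.6 and 70.7 CPM in DMSO (0.34, SE 0.09, adjusted p = 0.0375). Mrpl12 and Mrpl10 thus each had all cucurbitacin I values above all DMSO values. Exons of Mrpl12 overlap Gm16755 and those of Mrpl10 overlap Gm11574, each on the opposite strand, and whether reads were counted by strand is not stated.

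Mrpl35 had 40.7 and 38.2 CPM in cucurbitacin I, against 26.9 and 26.5 CPM in DMSO (0.56, SE 0.10, adjusted p = 0.0139). Mrpl15 had 57.7 and 53.9 CPM in cucurbitacin I, against 44.9 and 44.0 CPM in DMSO (0.33, SE 0.09, adjusted p = 0.0468). The groups were apart for both genes, and Mrpl15 was the called member closest to the threshold.

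Mitochondria-specific proteins made up 9 of the 16 called members, namely Mrpl37, Mrpl39, Mrpl42, Mrpl43, Mrpl45 and Mrpl51 in the large subunit and Mrps23, Mrps31 and Mrps35 in the small subunit. Mrps23 had 73.9 and 86.7 CPM in cucurbitacin I, against 56.2 and 55.0 CPM in DMSO (0.53, SE 0.11, edgeR adjusted p = 0.0195). Mrps35 had 53.9 and 50.2 CPM in cucurbitacin I, against 40.5 and 34.1 CPM in DMSO (0.48, SE 0.12, adjusted p = 0.032). In both, the cucurbitacin I values lay above the DMSO values, with a wider spread within a group than for Mrpl16.

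Mrpl45, through which the human mitochondrial ribosome is held at the inner membrane, had 62.6 and 61.7 CPM in cucurbitacin I, against 46.7 and 47.9 CPM in DMSO (0.39, SE 0.09, adjusted p = 0.0236). Mrpl39, related in sequence to a tRNA synthetase, had 70.4 and 65.3 CPM in cucurbitacin I, against 50.2 and 51.6 CPM in DMSO (0.41, SE 0.09, adjusted p = 0.0235). Mrpl42 had 42.3 and 46.6 CPM in cucurbitacin I, against 31.4 and 34.7 CPM in DMSO (0.43, SE 0.11, adjusted p = 0.0361). None of these 3 large-subunit genes overlapped between groups.

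The remaining called members, Mrpl37, Mrpl43 and Mrpl51, had log2 fold changes of 0.38, 0.37 and 0.36 with edgeR adjusted p-values of 0.0274, 0.0327 and 0.0405. Mrpl43 shares exon sequence on the opposite strand with Twnk, which encodes the mitochondrial DNA helicase. In all, 26 of 77 members overlapped exons of another gene that held at least 10% as many counts, among them 3 of the 16 called ones, and 13 called members had no such overlap.

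**Figure D2:**
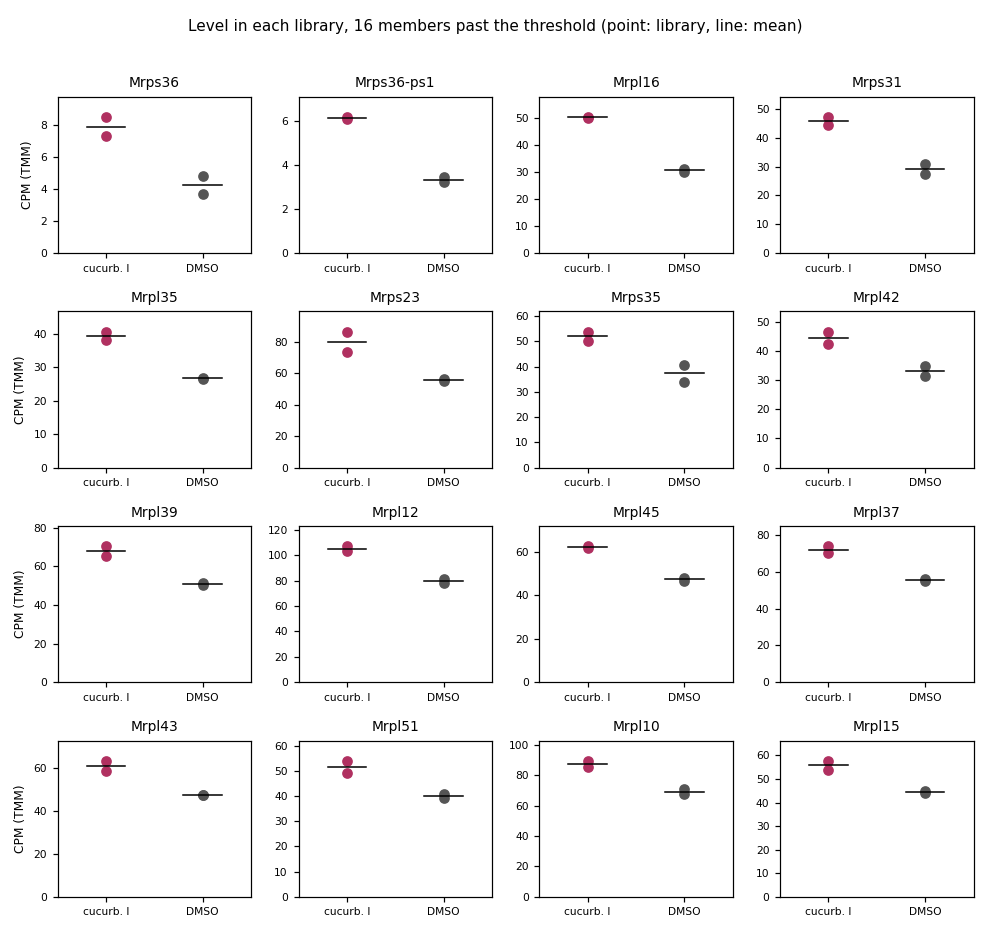
TMM-scaled CPM in each library for the 16 called members, cucurbitacin I left and DMSO right in each panel, with points for libraries and a line at the mean of 2. In every panel both cucurbitacin I points lie above both DMSO points, as for Mrpl16 with 50.4 and 50.2 against 31.2 and 30.0 CPM; with library totals only Mrpl16 and Mrps31 of these 16 passed the test.

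None of the 10 members with a fitted value below zero passed the test. Mrps12, the counterpart of bacterial S12 at the decoding centre, had the lowest fitted value, with 20.8 and 30.0 CPM in cucurbitacin I, against 32.4 and 29.5 CPM in DMSO (-0.29, SE 0.19, edgeR adjusted p = 0.301). The groups overlapped, because the cucurbitacin I libraries differed: without replicate 2 of them Mrps12 was called lower, at -0.57 (adjusted p = 0.0366). Mrpl54, a mitochondria-specific large-subunit protein, had 32.2 and 31.9 CPM in cucurbitacin I, against 38.7 and 37.9 CPM in DMSO (-0.26, SE 0.10, adjusted p = 0.0939). Its groups did not overlap, and with library totals it passed the test at -0.49 (adjusted p = 0.0193). Mrps5, Mrpl52 and Mrpl36 followed at -0.21, -0.20 and -0.18, with adjusted p-values of 0.286, 0.239 and 0.319.

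Besides Mrpl12, 4 human disease genes were described whatever their result, and none of them passed the test. Mrpl3, mutated in human cardiomyopathy, had 64.7 and 57.8 CPM in cucurbitacin I, against 53.3 and 51.5 CPM in DMSO (0.22, SE 0.10, edgeR adjusted p = 0.141). Mrpl44, likewise a cardiomyopathy gene and related to ribonuclease III, had 39.9 and 40.4 CPM in cucurbitacin I, against 33.6 and 34.3 CPM in DMSO (0.24, SE 0.10, adjusted p = 0.104). For both genes the groups did not overlap although neither passed the test, and Mrpl3 changed sign with library totals (-0.01).

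Mrps22, also linked to human cardiomyopathy, had 25.4 and 24.2 CPM in cucurbitacin I, against 21.0 and 21.0 CPM in DMSO (0.24, SE 0.11, adjusted p = 0.16). Mrps16, whose loss in humans causes fatal neonatal lactic acidosis, had 26.2 and 28.4 CPM in cucurbitacin I, against 28.1 and 26.5 CPM in DMSO (-0.00, SE 0.11, adjusted p = 0.998). The Mrps22 groups were apart, whereas those of Mrps16 overlapped fully.

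Mammals have 3 relatives of bacterial S18, and these differed in place as well as in level. Mrps18a, which sits in the large subunit despite its name, had 39.7 and 40.4 CPM in cucurbitacin I, against 39.8 and 37.7 CPM in DMSO (0.05, SE 0.10, edgeR adjusted p = 0.711). Mrps18b had 23.1 and 20.7 CPM in cucurbitacin I, against 17.1 and 15.5 CPM in DMSO (0.42, SE 0.14, adjusted p = 0.0634). Mrps18c had 32.4 and 31.4 CPM in cucurbitacin I, against 25.7 and 28.4 CPM in DMSO (0.24, SE 0.11, adjusted p = 0.158). The groups overlapped for Mrps18a and were apart for Mrps18b and Mrps18c, and no pair of these genes was tested against each other.

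Levels within the family spanned a wide range when set per length of annotated exon. That length merges the exons of all annotated transcripts of a gene (8487 bases for Mrpl15). It can exceed the length of the transcripts present, and the order below depends on it. The mean over all 4 libraries was highest for Mrpl12 with 60.4 CPM per kb, Mrps21 with 55.1, Mrpl28 with 54.7, Mrpl10 with 45.8 and Mrpl2 with 45.7 CPM per kb. The order differed between the groups: in cucurbitacin I Mrpl12 was highest at 68.6 CPM per kb and Mrps23 was in the fourth place at 51.5, and in DMSO Mrpl28 at 52.7 and Mrpl12 at 52.1 were nearly level with Mrpl54 in the fourth place at 46.5 CPM per kb. The median of 75 tested members with an exon length was 15.9 CPM per kb. Mrpl23 was the lowest tested, at 0.231 CPM per kb, with 26 and 33 counts in cucurbitacin I and 32 and 24 counts in DMSO. Its pseudogene Mrpl23-ps1 held 243 and 256 counts in cucurbitacin I and 400 and 286 counts in DMSO, so the level of Mrpl23 is uncertain. Mrpl53 had 2 and 4 counts in cucurbitacin I and 6 and 2 counts in DMSO and was not tested.

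Of the most abundant members per length, Mrps21, Mrpl28 and Mrpl2 did not pass the test. Mrps21 had 40.9 and 48.2 CPM in cucurbitacin I, against 36.4 and 37.2 CPM in DMSO (0.27, SE 0.12, edgeR adjusted p = 0.124). Mrpl28 had 76.5 and 80.2 CPM in cucurbitacin I, against 70.5 and 74.9 CPM in DMSO (0.11, SE 0.09, adjusted p = 0.4). Mrpl2 had 53.4 and 56.8 CPM in cucurbitacin I, against 55.8 and 47.8 CPM in DMSO (0.09, SE 0.11, adjusted p = 0.577). The groups overlapped for Mrpl2 alone of these 3 genes, and Mrpl28 and Mrpl2 had negative values with library totals (-0.13 and -0.15).

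On the question of whether the subunits responded alike, their medians were close. The share of called genes was larger for the large subunit in the main edgeR fit, but not in every setting. With library totals the members called higher were Mrpl16 in the large subunit and Mrps31 in the small. Of 46 large-subunit names tested, 11 were higher (23.9%) with a median log2 fold change of 0.22, and of 30 small-subunit names 5 were higher (16.7%) with a median of 0.17, both medians below zero with library totals (-0.01 and -0.07). The median difference, large minus small, was 0.05 with either scaling, because the change of scaling shifts all genes by nearly the same amount. The summed level of the large-subunit genes was 2124 and 2179 CPM in cucurbitacin I, against 1860 and 1850 CPM in DMSO. The summed level of the small-subunit genes was 1086 and 1132 CPM in cucurbitacin I, against 977.1 and 973.0 CPM in DMSO. Both sums were higher in each cucurbitacin I library than in either DMSO library on the TMM scale.

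The ratio of large to small sums does not depend on library scaling. Its log2 value was 0.967 and 0.945 in cucurbitacin I, against 0.929 and 0.927 in DMSO, a difference of 0.028 with a pooled within-group SD of 0.011 (n = 2 each). The groups did not overlap, and no test of 2 against 2 libraries can give an exact p below 0.33. When genes were assigned by their place in the ribosome, with Mrps18a and Mrps30 in the large subunit and Mrps36 and its copy left out, the log2 ratio was 1.144 and 1.114 in cucurbitacin I, against 1.106 and 1.091 in DMSO. That difference was 0.031 with a pooled SD of 0.017. By place, 11 of 48 large-subunit genes (22.9%) and 3 of 26 small-subunit genes (11.5%) were higher, with medians of 0.22 and 0.15, and the difference in share was not tested.

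**Figure D3:**
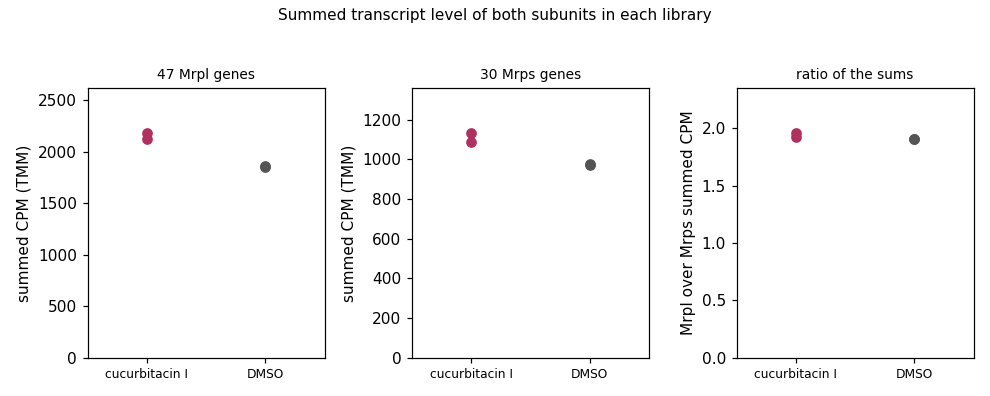
Summed TMM-scaled CPM of the 47 Mrpl genes (left), of the 30 Mrps genes (middle) and the linear ratio of both sums (right) in each library, cucurbitacin I left of DMSO in each panel. The sums are 2124 and 2179 against 1860 and 1850 CPM for Mrpl genes and 1086 and 1132 against 977.1 and 973.0 CPM for Mrps genes, a separation that rests on TMM scaling, while the ratio differs by 0.028 on the log2 scale.

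Grouped by descent, mitochondria-specific members had 9 of 28 genes higher (32.1%) and a median log2 fold change of 0.25, and members with a bacterial counterpart had 5 of 46 higher (10.9%) and a median of 0.16, against 13.9% of all genes tested higher. The contrast did not hold in every setting: with library totals 1 mitochondria-specific member was higher (Mrps31) and 1 lower (Mrpl54), against 1 higher with a bacterial counterpart (Mrpl16). Without DMSO replicate 1 the counts higher were 0 and 1 (Mrpl16), and without DMSO replicate 2 they were 1 (Mrps31) and 1 (Mrpl16). Here Mrps18a and Mrps18b, relatives of S18 that have names of their own in the current nomenclature, count as mitochondria-specific, and Mrps36 and its copy count in neither group. By place, the large subunit had 6 of 18 mitochondria-specific genes higher, against 5 of 30 with a bacterial counterpart, and the small subunit 3 of 10, against 0 of 16. For these 16 genes edgeR gave 2 higher and 0 lower at an unadjusted p below 0.05. The difference between these groups of genes was not tested, since genes of one set of libraries are not replicates.

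Promoters of the members were read from RefSeq (GRCm38.p6), as 250 bases before and 50 after the most upstream start of each gene, and 67 of 77 members matched. The letters CCGGAAG, a form of the site of ETS factors such as GABPA, stood in 22 of 67 promoters (32.8%), against 16.8% of 10589 protein-coding genes tested. AAGATGGC, a form of the YY1 site, stood in 12 (17.9%), against 4.37%. TGCGCATGC, a form of the NRF1 site, stood in 6 (8.96%), against 2.92%, and a longer palindromic NRF1 form that overlaps it in 3 (4.48%), against 2.01%. In all, 33 of 67 promoters (49.3%) held CCGGAAG, AAGATGGC or TGCGCATGC on either strand, against 22.4% of the tested protein-coding genes and 12.8% of all 27025 promoters. Of the called members 7 of 13 with a promoter held one.

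CCAAT, the letters of the NFY site, stood in 27 of 67 member promoters (40.3%), against 38.6% of the tested protein-coding genes, and the E-box CACGTG in 5 (7.46%), against 10%. The median GC content was 58% in the members' promoters and 61% in those of the tested coding genes. Such a match says only that the letters are present. 4 promoters are printed 5′ to 3′ on the gene's strand, with matches on either strand in capitals: Mrpl16 (chr19:11770165-11770464, plus strand), the member whose call held throughout; Mrpl51 (chr6:125191950-125192249, plus strand), a called member with an ETS form; Mrpl32 (chr13:14612988-14613287, minus strand), with NRF1 forms; and Mrps12 (chr7:28741772-28742071, minus strand), the member with the lowest fitted value.
Mrpl16 promoter: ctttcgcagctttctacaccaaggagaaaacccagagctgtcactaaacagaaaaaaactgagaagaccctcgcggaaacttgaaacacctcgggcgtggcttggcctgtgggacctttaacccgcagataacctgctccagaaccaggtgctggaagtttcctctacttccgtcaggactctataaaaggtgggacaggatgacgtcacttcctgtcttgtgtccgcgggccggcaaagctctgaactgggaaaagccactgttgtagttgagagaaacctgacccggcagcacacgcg
Mrpl51 promoter: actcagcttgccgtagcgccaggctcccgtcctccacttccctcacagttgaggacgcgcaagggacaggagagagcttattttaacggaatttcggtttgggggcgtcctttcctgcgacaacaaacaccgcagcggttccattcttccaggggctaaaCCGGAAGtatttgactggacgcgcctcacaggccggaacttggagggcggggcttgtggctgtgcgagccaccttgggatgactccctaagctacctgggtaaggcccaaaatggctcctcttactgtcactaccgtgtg
Mrpl32 promoter: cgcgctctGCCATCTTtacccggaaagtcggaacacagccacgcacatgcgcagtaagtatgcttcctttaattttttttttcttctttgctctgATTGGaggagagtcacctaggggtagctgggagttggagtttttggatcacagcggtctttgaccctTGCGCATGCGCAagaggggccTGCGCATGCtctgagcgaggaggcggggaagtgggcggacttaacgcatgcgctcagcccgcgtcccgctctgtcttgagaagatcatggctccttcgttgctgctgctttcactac
Mrps12 promoter: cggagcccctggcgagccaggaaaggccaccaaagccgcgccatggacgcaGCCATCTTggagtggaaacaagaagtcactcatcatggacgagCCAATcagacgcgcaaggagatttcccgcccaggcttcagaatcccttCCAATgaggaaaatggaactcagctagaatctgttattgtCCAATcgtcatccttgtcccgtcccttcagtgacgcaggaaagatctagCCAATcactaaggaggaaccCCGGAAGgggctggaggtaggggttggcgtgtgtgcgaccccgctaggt

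The Mrpl16 promoter held none of the letters searched. The Mrpl51 promoter held CCGGAAG at position -90, counted from the transcript's first base. The Mrpl32 promoter held NRF1 letters in 2 separate capital runs, AAGATGGC on the reverse strand at position -242 and CCAAT on the reverse strand at position -155. The Mrps12 promoter held AAGATGGC on the reverse strand, CCAAT at 4 places and CCGGAAG at position 2 of the transcript. Of the called genes printed, Mrpl16 thus lacked these letters and Mrpl51 held a match, while Mrpl32 and Mrps12, which were not called, had several. Whether matches go with the calls was not tested.

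A total of 19 members had a neighbour that starts upstream of them, in the opposite direction, within 1000 bases. Head-to-head genes that overlap at their starts, such as Mrpl46 and Mrps11, were not counted here. Among these neighbours 3 were higher, 2 lower and 14 not past the test. Mitd1, which acts in the last step of cell division, starts 66 bases from Mrpl30. It had 9.83 and 9.85 CPM in cucurbitacin I, against 26.0 and 28.6 CPM in DMSO (-1.47, edgeR adjusted p = 0.0028), whereas Mrpl30 had 56.5 and 54.2 CPM in cucurbitacin I, against 46.8 and 47.5 CPM in DMSO (0.23, adjusted p = 0.103). Mitd1 and Mrpl30 thus differed in sign on the TMM scale, and with library totals Mrpl30 was at -0.00.

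Ncapd2, a subunit of the condensin complex that compacts chromosomes, starts 100 bases from Mrpl51. It had 88.3 and 114 CPM in cucurbitacin I, against 217 and 208 CPM in DMSO (-1.07, edgeR adjusted p = 0.00678), whereas Mrpl51 had 49.3 and 53.9 CPM in cucurbitacin I, against 39.3 and 40.9 CPM in DMSO (0.36, adjusted p = 0.0405). This was the only one of the 19 pairs in which a called member stood beside a called neighbour. DESeq2 did not call Mrpl51, and with library totals Mrpl51 was at 0.13 (edgeR adjusted p = 0.4). Psma2, a proteasome subunit 75 bases from Mrpl32, was higher with a log2 fold change of 0.34 (adjusted p = 0.0326). Ptcd2, beside Mrps27, and Eme2, beside Mrps34, were higher at 0.45 and 0.42, while Mrps27 and Mrps34 had 0.07 and 0.12. Mrpl46 and Mrps11 overlap each other head to head over 173 bases of exon, with log2 fold changes of 0.29 and 0.13 that did not pass the test.

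**Figure D4:**
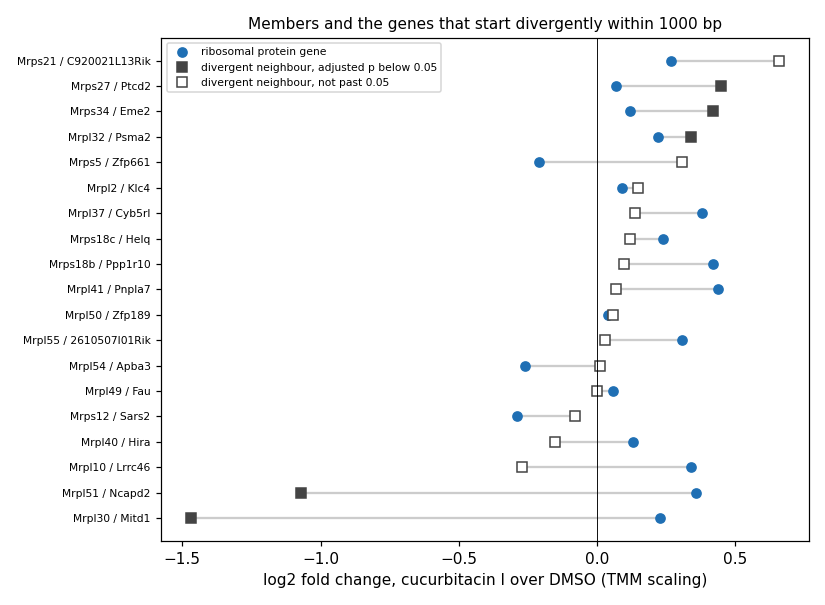
Log2 fold change, cucurbitacin I over DMSO with TMM scaling, of 19 members (circles) and of their divergent neighbours (squares). Each neighbour starts upstream of its member within 1000 bases, and filled squares passed an adjusted p of 0.05. The widest gaps are at Mrpl30 and Mitd1 (0.23 and -1.47) and at Mrpl51 and Ncapd2 (0.36 and -1.07); with library totals Mrpl30 is at -0.00.

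The rest of the mitochondrial translation system gave a mixed picture. Among 6 ribosome proteins without an Mrp name, 1 was higher, Ptcd3, a small-subunit protein with RNA-binding repeats (0.42, SE 0.10, edgeR adjusted p = 0.0279). Among 27 tested assembly genes 3 were higher (11.1%) and 1 lower (3.7%), with a median of 0.08, against 13.9% of all genes higher and 19.5% lower. Afg3l2, a subunit of the inner-membrane protease that matures Mrpl32, had 176 and 177 CPM in cucurbitacin I, against 90.4 and 101 CPM in DMSO (0.88, adjusted p = 0.0046). Mpv17l2 was also higher (0.75, adjusted p = 0.00947), and Trub2, a pseudouridine synthase, was lower (-0.31, adjusted p = 0.0498), a call that DESeq2 did not make. Mrpl32 itself, the substrate of that protease, had 23.0 and 27.5 CPM in cucurbitacin I, against 22.2 and 21.1 CPM in DMSO (0.22, adjusted p = 0.26), and was at -0.01 with library totals.

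Translation factors had 4 of 17 genes higher (23.5%, against 13.9% of all genes) and 0 lower by edgeR, with a median of 0.24. There were 0 lower also at an unadjusted p below 0.05 and by DESeq2. This list also held Lrpprc, Slirp, Oxa1l, Pet100 and Cox14, which are not translation factors, and Pet100 was among the 4 higher. Gfm1, the elongation factor that moves the ribosome along, had 125 and 134 CPM in cucurbitacin I, against 73.2 and 85.4 CPM in DMSO (0.70, adjusted p = 0.00995), and Mtif2, an initiation factor, had a log2 fold change of 0.47 (adjusted p = 0.0178). Mitochondrial aminoacyl-tRNA synthetases had 4 of 20 genes higher (20%) and 1 lower (5%), in a list that also held Qrsl1, Gatc and Pet112, which are not synthetases. Fars2, which charges phenylalanine tRNA, had a log2 fold change of 0.72 (adjusted p = 0.00807), and Qrsl1, a subunit of the enzyme that makes glutamine-charged tRNA, one of 0.78 (adjusted p = 0.00909). Lars2 had 54.7 and 92.3 CPM in cucurbitacin I, against 398 and 142 CPM in DMSO (-1.88, SE 0.52, adjusted p = 0.041), and its DMSO libraries stood far apart. Without DMSO replicate 1 Lars2 was at -0.95 (adjusted p = 0.115), and without cucurbitacin I replicate 1 at -1.54 (adjusted p = 0.0876).

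Mitochondrial transcription and DNA maintenance genes had 0 of 11 past the edgeR test, with 2 higher and 0 lower at an unadjusted p below 0.05. Messenger RNAs encoded in mitochondrial DNA, the templates of this ribosome, were higher in all 7 of 13 that were tested, with a median of 1.23. The other 6 (mt-Atp6, mt-Atp8, mt-Co2, mt-Co3, mt-Nd3 and mt-Nd4l) are listed at 0 counts, apart from 1 count of mt-Co2, while mt-Co1 had 96953 and 111521 counts in cucurbitacin I, against 48063 and 56748 counts in DMSO. Every cell uses these genes, so their listed zeros are not read as absent transcripts, and how the reads were counted there is not stated. Among them mt-Cytb had 3030 and 3580 CPM in cucurbitacin I, against 1110 and 1470 CPM in DMSO (1.36, adjusted p = 0.00916). Nuclear-encoded respiratory chain subunits had 55 of 80 higher (68.8%, against 13.9% of all genes) and 1 lower, with a median of 0.53. The lower one was Cox4i2, an alternative cytochrome oxidase subunit at under 1 CPM in every library. Among the higher subunits, Ndufa5 of complex I had a log2 fold change of 1.02 (adjusted p = 0.00563) and Cox5a of complex IV one of 0.83 (adjusted p = 0.0061).

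Cytosolic ribosomal proteins had 1 of 82 higher, Rps27l, and 19 lower (23.2%, against 19.5% of all genes tested), with a median of -0.27. Among the lower were Rpl22l1 (-1.11, edgeR adjusted p = 0.00595) and Rps18 (-0.63, adjusted p = 0.00889). Counts in this list were very uneven: Rps6 had 41 and 38 in cucurbitacin I and 39 and 38 in DMSO, and Rpl4 had 21669 and 16300, and 29099 and 21875. How reads shared with similar copies were counted is not stated, so this list's values are uncertain. The mitochondrial ribosomal proteins, at a median of 0.21, thus lay between the respiratory chain list above them and the cytosolic ribosomal list below them, an order of medians that was not tested. Leaving out 1 library at a time gave 6 to 52 respiratory chain subunits higher, 2 to 7 mitochondrially encoded mRNAs higher and 1 to 14 cytosolic ribosomal proteins lower. It gave 0 to 4 translation factors, 1 to 4 synthetases, 1 to 3 assembly genes and 0 to 1 ribosome proteins without an Mrp name higher, with no lower count than that without DMSO replicate 1. With library totals 19 respiratory chain subunits and 4 mitochondrially encoded mRNAs were higher and 38 cytosolic ribosomal proteins lower. In that setting 6.33% of all genes were higher and 28.5% lower, and 1 translation factor was higher and 2 were lower.

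**Figure D5:**
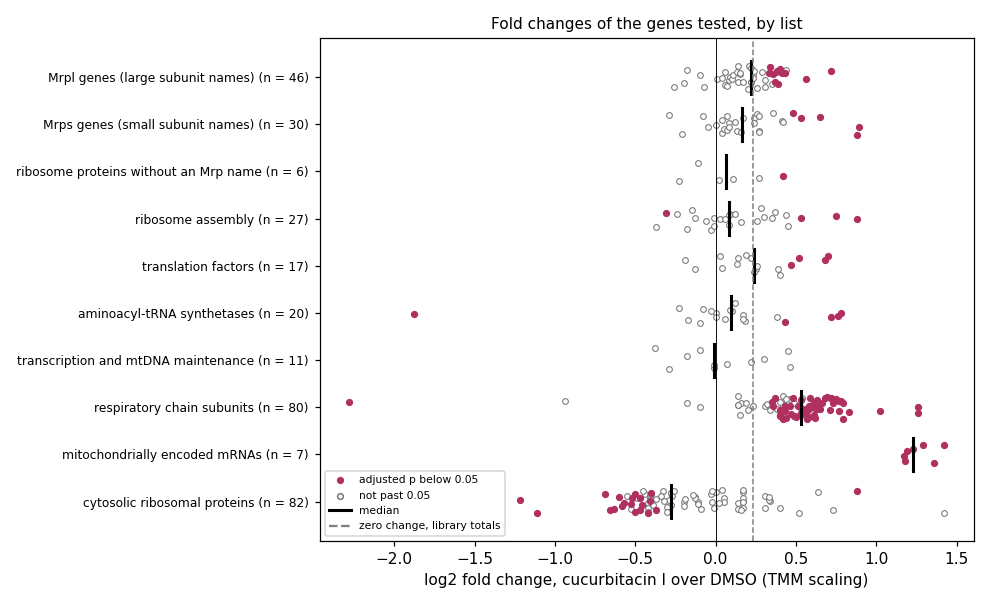
Log2 fold change, cucurbitacin I over DMSO with TMM scaling, of each gene tested in the members' 2 groups and 8 other lists; filled points passed an adjusted p of 0.05, thick bars are medians and the dashed line marks zero change under library totals. Medians are 0.22 and 0.17 for Mrpl and Mrps names, 0.53 for respiratory chain subunits, 1.23 for mitochondrially encoded mRNAs and -0.27 for cytosolic ribosomal proteins; the Mrpl and Mrps medians are -0.01 and -0.07 with library totals.

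Markers of cell state moved with the groups. Cardiomyocyte markers, those of the labelled lineage, were present in all 4 libraries and 3 of 7 were higher. The 7 markers summed to 12270 and 15600 CPM in cucurbitacin I, against 6707 and 8046 CPM in DMSO. Much of that sum was Tnnt2, with 5610 and 7360 CPM in cucurbitacin I, against 1880 and 2570 CPM in DMSO. Myh6, Myh7, Myl7 and Nkx2-5 did not pass the test, and the groups overlapped for Myh7 and Myl7. Smooth muscle markers were higher in 4 of 4 genes, with sums of 34340 and 25550 CPM in cucurbitacin I, against 3627 and 5276 CPM in DMSO. Endoderm markers were lower in 5 of 5 genes, with sums of 3.69 and 5.65 CPM in cucurbitacin I, against 479 and 740 CPM in DMSO, and dividing-cell markers in 5 of 5, with sums of 134.6 and 175.2 CPM in cucurbitacin I, against 596.4 and 600.6 CPM in DMSO. Endothelial markers were lower in 2 of 4 genes, with sums of 20.45 and 25.89 CPM in cucurbitacin I, against 113.5 and 133.1 CPM in DMSO. Blood markers were lower in 3 of 4 genes, with sums of 25.53 and 25.8 CPM in cucurbitacin I, against 87.2 and 106.6 CPM in DMSO, and the 3 pluripotency markers summed to under 1 CPM in every library. Their part in the members' changes was not tested.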

How the data were processed

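RNA sequencing libraries were made from total RNA with a TruSeq kit, per the labels' protocols. STAR 2.3.0e, HTSeq 0.6.0 and build mm10 are named in the submitters' processing notes, and the annotation release, counting mode and strand setting are not stated there. Per the file headers, 1 table holds raw counts for every gene in each of the 4 libraries, and 4195 of its 43374 lines repeat an ID. Beside the counts the authors deposited a normalized signal per library, which was not used. The log2 fold change deposited by the authors comes with a standard error and a statistic, which are score columns, per the file headers. A p-value and its adjusted form, also deposited by the authors, complete the table. The authors' deposited table has 26 of 77 members higher and 1 lower at an adjusted p below 0.05. The share of all genes past that threshold in the authors' columns was not computed, so these counts have no background beside them.

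From the counts, edgeR 4.0.16 (R 4.3.3) fitted a quasi-likelihood model to all 4 libraries, with filterByExpr at a minimum count of 10, TMM scaling and Benjamini-Hochberg adjustment over 16722 genes. The fit had 2 residual degrees of freedom, with 3.5 added by the prior, and a biological coefficient of variation of 15.7%. It was tested on simulated data with known changes. DESeq2 1.42.0, other scalings, filters, a replicate block and leaving out each library were the alternatives. Within a group, replicates differed by more than sampling noise (chi-square per degree of freedom 36.5 in cucurbitacin I and 26.1 in DMSO). Gene lengths, overlaps and divergent starts come from GENCODE M21, which holds 76 of the 77 members' IDs. Promoters come from RefSeq.

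Members and lists were chosen with earlier results of these data known. Full statistics were given for members with the 10 largest rises or falls past the threshold, the 5 highest per length, named disease genes and S18 relatives, and up to 2 genes a direction of other lists. Neighbours of members, and other members named, were chosen after their values were seen.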

Additional observations from a re-analysis of the deposited data

How the results depend on the processing

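The scaling and the number of libraries limited these results most. With library totals in place of TMM factors, 2 members were higher and 1 lower, and the medians turned to -0.02 for all members, -0.01 for large-subunit and -0.07 for small-subunit names. Single members also turned negative: Mrpl28 (-0.13), Mrpl2 (-0.15), Mrpl3 (-0.01), Mrps18a (-0.18), Mrpl30 (-0.00), Mrps11 (-0.10), Mrpl32 (-0.01), Mrps27 (-0.16), Mrps34 (-0.12) and Mrpl24 (-0.01). This follows from the factors themselves, which shifted every member by -0.24 to -0.23. Mrps16, at -0.00, was at 0.00 with DESeq2 and with median-of-ratios factors. Among genes with a mean of at least 50 counts the medians were 0.18 for all members and 0.19 for large-subunit names.

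Leaving out each library in turn gave 1 to 11 members higher and 0 to 1 lower. The members' median ranged from 0.18 to 0.22, the large-subunit median from 0.20 to 0.23 and the large minus small difference from 0.01 to 0.06. Mrpl2 ranged from -0.02 to 0.21, Mrps11 from -0.06 to 0.32 and Mrps16 from -0.05 to 0.06. Where 1 library was left in a group, it was assumed to vary like the other group, and the cause of the lost calls was not tested. The members' median stayed 0.18 to 0.24 above that of all genes in every setting run.

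With a replicate block 19 members were higher and 0 lower, 16 of them called without it. The block also raised the calls among all 16722 genes, from 2318 to 2660 higher and from 3259 to 3707 lower. The labels do not say that numbers pair the libraries. Same-numbered libraries deviated together only weakly (r = 0.24 over the genes tested). With 2 libraries a group, both pairs give this same value.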
